A study of Mus musculus with 36 samples.

Results

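Gene expression was described in common dendritic progenitors (CDP), mouse bone marrow cells committed to the dendritic lineage, at 12 h of TGF-β1. The groups were taken from the sample titles and not from measured values: 3 arrays of CDP that received recombinant human TGF-β1 at 10 ng/ml for 12 h, against 3 arrays of CDP left untreated, 6 of the 36 arrays of the series. The CDP of all 6 had been expanded from marrow in cytokine culture and isolated by FACS. The other arrays hold CDP at 2, 4, 8 and 24 h and multipotent progenitors (MPP), the less committed cells from which CDP arise, untreated and at 2, 4, 8, 12 and 24 h. By the study's account replicates are biological, 3 for each group. The mouse strain and age are not given in the sources used here. No untreated arrays of the later times were analysed here, so TGF-β1 itself and the added 12 h in culture cannot be told apart. One protocol text gives 6 h where every title gives 8 h, and the titles are followed.

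TGF-β1 binds the receptor Tgfbr2, which recruits Tgfbr1, and Tgfbr1 phosphorylates Smad2 and Smad3. These enter the nucleus with Smad4 and switch on target genes, among them inhibitors of the pathway itself. In the dendritic lineage TGF-β1 is known for its need in Langerhans cells, which live in the epidermis and hold on to keratinocytes through junction proteins such as E-cadherin.

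Levels are log2 intensities, changes are log2 differences ± the standard error of limma, and a gene was called at a limma adjusted p under 0.01 and a change of log2 1 or more, in either direction. The defining genes of CDP were bright in all 6 arrays. The cytokine receptor Flt3 lay at 13.21, 13.13 and 13.17 at 12 h, against 12.42, 12.40 and 12.28 in untreated CDP, and Csf1r, the receptor of macrophage colony-stimulating factor, at 12.91, 12.85 and 13.02, against 12.75, 12.67 and 12.98. The myeloid factor Spi1 lay at 13.31, 13.27 and 13.36 at 12 h, against 13.30, 13.26 and 13.36 in untreated CDP. None of these was called, nor were Cx3cr1, Irf8, Tcf4, Id2 or Cd48. Flt3, Irf8 and Id2 were each above untreated CDP in 3 of 3 arrays (changes of 0.80 ± 0.10, 0.55 ± 0.06 and 0.65 ± 0.05). For Tcf4 every 12 h array lay below every untreated one, as for 17.2% of all genes tested. The stem cell factor receptor Kit was dimmer, at 9.19, 9.68 and 9.80 at 12 h against 8.40, 8.86 and 8.63 in untreated CDP. Kit was not called, though every 12 h array lay above every untreated one, as for 14.8% of all genes tested. Lists of mast cell, erythroid, B cell and T and NK cell genes had mean levels of 6.80 to 7.35 at 12 h. In untreated CDP their means were 6.77 to 7.48, against an array median of 7.49 to 7.66 over all probe sets. Megakaryocyte genes lay higher, at 9.0 to 9.3 at 12 h and 8.6 to 9.0 in untreated CDP. Genes of stem and multipotent progenitors lay at 8.9 to 9.0 and 8.8 to 8.9. Lists of monocyte, neutrophil and dendritic cell genes also had means above that median.

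At 12 h 370 of the 19938 genes tested were called (1.86%). Of these 171 were higher (0.858%) and 199 lower (0.998%) than in untreated CDP, and for all 370 the 3 same-numbered pairs shared 1 direction. The arrays of the groups did not overlap for 364 of them. The 370 were called from these same arrays, so neither count is separate support for the calls. Over all genes tested, the 12 h arrays lay wholly above for 14.8% and wholly below for 17.2%. A change of log2 2 or more was reached by 37 called genes that rose and 38 that fell. The genes called higher had a median level of 10.66 at 12 h and 8.83 in untreated CDP, and the genes called lower had a median of 8.49 at 12 h and 10.08 in untreated CDP. The median of all genes in untreated CDP was 7.92. A further 28 genes moved by log2 1 or more without being called, 25 of them downward. The shares called over all genes tested are to be set beside the counts for lists and families below. The lists were chosen with earlier results of these data known. A share above that of all genes is thus a description and not a test.

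**Figure D1:**
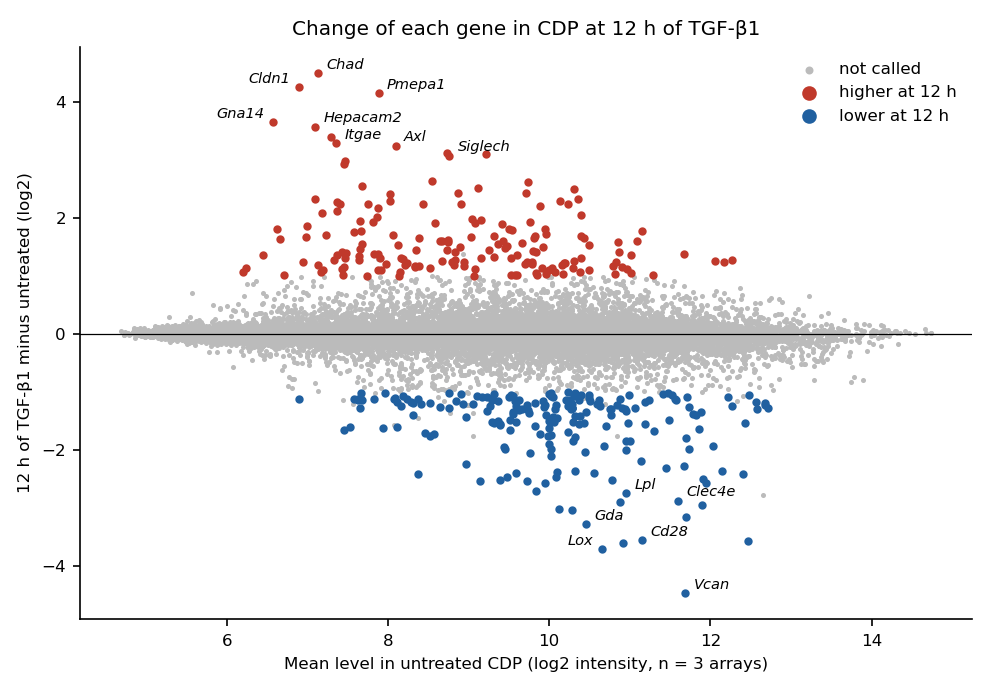
Each point is 1 gene. The x axis gives its mean level in untreated CDP (log2 intensity, 3 arrays) and the y axis its change at 12 h of TGF-β1 (log2). The 171 genes called higher are red, the 199 called lower blue. Chad, Cldn1, Pmepa1 and Gna14 rose most and lay under 8 before treatment, and Vcan fell most.

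Chad rose most. It encodes chondroadherin, a leucine-rich protein of the cartilage matrix. Chad read 11.73, 11.79 and 11.39 at 12 h, against 7.18, 7.07 and 7.14 in untreated CDP, a change of 4.50 ± 0.14 (22.7-fold, limma adjusted p = 1.07e-10). Cldn1, the tight junction protein claudin-1, read 10.84, 11.15 and 11.47 at 12 h, against 6.76, 6.96 and 6.97 in untreated CDP, a change of 4.26 ± 0.18 (19.1-fold, limma adjusted p = 1.42e-09). Pmepa1, a membrane adaptor that withholds Smad2 and Smad3 from the receptor, read 12.09, 12.08 and 11.92 at 12 h, against 7.74, 8.79 and 7.12 in untreated CDP, a change of 4.15 ± 0.23. No array at 12 h came near an untreated one for these 3 genes, and Pmepa1 varied more between the untreated arrays than between those at 12 h.

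Gna14, a G protein α subunit of the Gq class, read 10.13, 10.31 and 10.26 at 12 h, against 6.66, 6.59 and 6.48 in untreated CDP, a change of 3.66 ± 0.11 (limma adjusted p = 5.47e-11). Hepacam2, a membrane protein of the immunoglobulin superfamily, rose by 3.58 ± 0.14 and Ifnlr1, the receptor chain of the λ interferons, by 3.40 ± 0.14. Cd96, an adhesion receptor best known from T and NK cells, rose by 3.11 ± 0.13, Vipr1, a receptor of vasoactive intestinal peptide, by 2.99 ± 0.14, and Kcne3, a β subunit of potassium channels, by 2.93 ± 0.17. Rasgrp3, an activator of Ras and Rap, rose by 2.63 ± 0.16, and Tmem119, a membrane protein used as a marker of microglia, by 2.63 ± 0.11. These completed the 15 largest rises together with Itgae, Axl, Cdh1 and Siglech, whose values follow. In all 15 genes every 12 h array lay above every untreated one.

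The largest fall was that of Vcan, which encodes the matrix proteoglycan versican. Vcan read 7.26, 7.03 and 7.39 at 12 h, against 11.66, 11.38 and 12.02 in untreated CDP, and thus fell by 4.46 ± 0.12 (22-fold, limma adjusted p = 5.47e-11). Lox, the lysyl oxidase that cross-links collagen and elastin, read 6.95, 6.87 and 7.06 at 12 h, against 10.61, 11.03 and 10.33 in untreated CDP. Cd28, best known as the costimulatory receptor of T cells, read 7.84, 7.69 and 7.28 at 12 h, against 11.40, 11.15 and 10.91 in untreated CDP. Lox fell by 3.70 ± 0.17 and Cd28 fell by 3.55 ± 0.10, and at 12 h Vcan and Lox lay below the median of the array.

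Gda, a guanine deaminase of purine breakdown, read 7.10, 6.79 and 7.69 at 12 h, against 10.62, 10.17 and 10.59 in untreated CDP. Lpl, the lipoprotein lipase, read 8.08, 7.91 and 8.68 at 12 h, against 10.96, 10.73 and 11.18 in untreated CDP. The groups did not overlap for either gene. Gda fell by 3.27 ± 0.14 and Lpl fell by 2.73 ± 0.20. Among the 15 largest falls were also the C-type lectin genes Clec4n, Clec4a1, Clec4a3 and Clec4e, the myeloid receptor Cd300ld, the membrane protein gene Ms4a4a (fell by 2.89 ± 0.13), the acid-sensing receptor Gpr65 (fell by 2.70 ± 0.37), haptoglobin (Hp, fell by 2.56 ± 0.20), and the predicted genes Gm9733 (fell by 3.03 ± 0.12) and Gm5150 (fell by 3.01 ± 0.19). The arrays cannot be taken to separate close paralogs such as those of the Clec4a group.

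**Figure D2:**
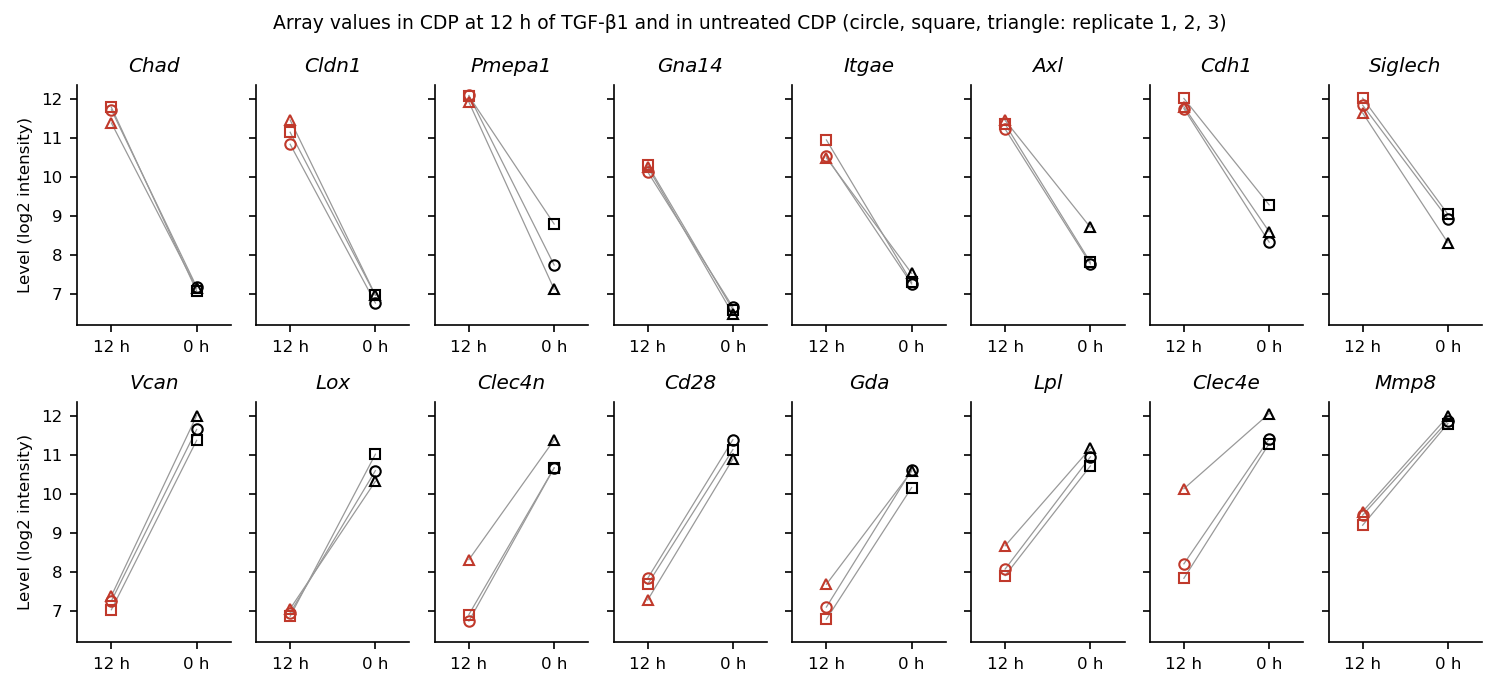
Log2 levels of 16 genes on the 3 arrays at 12 h of TGF-β1 (red, left) and the 3 untreated arrays (black, right), with same-numbered arrays joined. The upper row holds genes called higher and the lower row genes called lower. The groups do not overlap in any panel, and replicate 3 (triangle) is the highest of the 12 h arrays for Clec4n, Gda, Lpl and Clec4e.

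The stretches of 250 bases before the transcription start are shown for 6 genes. These had the 3 largest rises and 3 largest falls among genes whose promoter could be shown. Pmepa1 rose more than Gna14, and Lox, Clec4n and Cd28 fell more than Gda, but their stretches are not shown. The stretches are RefSeq sequence of build GRCm38.p6, written 5′ to 3′ on the strand of the gene. Capitals mark the Smad box CAGAC and the core of PU.1 sites GAGGAA, on either strand. Chad lies at chr11:94564797-94565046 (plus strand), Cldn1 at chr16:26371840-26372089 (minus), Gna14 at chr19:16435417-16435666 (plus), Vcan at chr13:89742513-89742762 (minus), Clec4a1 at chr6:122921598-122921847 (plus) and Gda at chr19:21472662-21472911 (minus).
Chad: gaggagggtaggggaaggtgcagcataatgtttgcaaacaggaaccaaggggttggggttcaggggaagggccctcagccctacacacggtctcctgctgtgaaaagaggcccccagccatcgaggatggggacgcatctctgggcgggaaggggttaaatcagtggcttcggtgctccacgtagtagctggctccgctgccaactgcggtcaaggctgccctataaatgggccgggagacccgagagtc
Cldn1: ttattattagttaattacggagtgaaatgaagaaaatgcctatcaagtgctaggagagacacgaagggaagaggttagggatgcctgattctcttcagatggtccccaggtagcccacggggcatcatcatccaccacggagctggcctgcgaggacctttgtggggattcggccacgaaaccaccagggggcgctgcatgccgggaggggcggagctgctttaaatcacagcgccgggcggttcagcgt
Gna14: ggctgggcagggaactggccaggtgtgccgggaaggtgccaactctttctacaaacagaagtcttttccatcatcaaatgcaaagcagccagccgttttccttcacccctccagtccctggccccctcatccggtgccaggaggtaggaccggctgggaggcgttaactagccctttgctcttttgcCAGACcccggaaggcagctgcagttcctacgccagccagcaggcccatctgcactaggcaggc
Vcan: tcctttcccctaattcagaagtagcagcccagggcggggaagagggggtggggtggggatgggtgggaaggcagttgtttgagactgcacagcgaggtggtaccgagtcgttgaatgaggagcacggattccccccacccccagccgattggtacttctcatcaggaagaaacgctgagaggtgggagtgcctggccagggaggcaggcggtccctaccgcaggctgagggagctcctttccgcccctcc
Clec4a1: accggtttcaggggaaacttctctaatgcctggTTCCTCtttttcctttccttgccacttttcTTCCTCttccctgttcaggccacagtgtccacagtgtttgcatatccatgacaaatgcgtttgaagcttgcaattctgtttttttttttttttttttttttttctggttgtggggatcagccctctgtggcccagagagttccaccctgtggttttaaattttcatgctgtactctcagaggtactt
Gda: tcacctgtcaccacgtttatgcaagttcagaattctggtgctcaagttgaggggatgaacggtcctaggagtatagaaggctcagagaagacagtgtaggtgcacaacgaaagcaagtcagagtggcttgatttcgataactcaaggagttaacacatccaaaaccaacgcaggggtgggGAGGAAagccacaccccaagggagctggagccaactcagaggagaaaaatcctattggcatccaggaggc
In these windows Gna14 had 1 Smad box, which began 63 bases before the start. Clec4a1 had 2 PU.1 cores, which began 217 and 187 bases before the start, and Gda had 1, which began 70 bases before it. The windows of Chad, Cldn1 and Vcan held neither, and none of the 6 held the AP-1 site TGANTCA or the Egr site GCGTGGG.

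Promoters were listed for 129 of the 171 genes called higher, 147 of the 199 called lower and 15563 of all genes tested. A Smad box was found in 45.7% of the promoters of genes called higher, 37.4% of those of genes called lower and 41.2% of all. A PU.1 core was found in 26.4% of those called higher, 38.1% of those called lower and 22.5% of all. An Egr site was found in 14.0% of those called higher, 4.08% of those called lower and 5.69% of all, and an AP-1 site in 8.53%, 8.84% and 6.09%. The base composition of the windows differed as well, with a median GC content of 60.4% among genes called higher, 52.8% among genes called lower and 56.4% over all, and its part in these shares was not tested. Matches of different motifs overlapped most often between Smad boxes and AP-1 sites, in 67 of the 27025 listed windows. These shares are a description, and a match is not evidence of binding.

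Some inhibitors of the TGF-β pathway itself rose. Of 17 measured genes of feedback inhibitors 7 were called higher and 0 lower (41.2%, against 1.86% of all genes tested), 10 were not called, and the median change of the 17 was 0.66, against −0.007 over all genes. Besides Pmepa1 these were Spsb1, which marks the type II receptor for removal (2.44 ± 0.12), Ldlrad4, a relative of Pmepa1 (2.29 ± 0.07), the Smad corepressors Skil (1.80 ± 0.12) and Ski (1.22 ± 0.09), the inhibitory Smad7 (1.67 ± 0.08) and the ubiquitin ligase Smurf1 (1.52 ± 0.14). Smad7 read 10.62, 10.77 and 10.71 at 12 h, against 8.89, 9.28 and 8.92 in untreated CDP, and Skil read 11.24, 11.31 and 11.46, against 9.16, 9.66 and 9.80. For both genes every 12 h array lay above every untreated one. The other inhibitory Smad, Smad6, was higher in 3 of 3 arrays but changed by only 0.81 ± 0.08 and was not called. Not all of the 17 moved upward, and the lowest change was −0.99. At an unadjusted p of limma under 0.05, 11 were higher and 2 lower. These are 64.7% and 11.8%, against 12.5% and 14.2% of all genes tested.

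Among 21 genes of receptors and Smads 2 were called higher and 1 lower (14.3% called, against 1.86% of all genes tested). The median of the list was 0.003. Tgfbr1, the type I receptor that phosphorylates the Smads, read 12.46, 12.43 and 12.54 at 12 h, against 10.16, 10.46 and 10.08 in untreated CDP, a change of 2.24 ± 0.09. The coreceptor endoglin (Eng) rose by 1.21 ± 0.08. Smad3, the signal transducer, read 8.41, 8.23 and 8.65 at 12 h, against 9.72, 9.73 and 9.74 in untreated CDP, and fell by 1.30 ± 0.08 (limma adjusted p = 7.19e-08). The type II receptor Tgfbr2 changed by 0.94 ± 0.10 and was not called. Of 21 genes of ligands and latency proteins 1 was called (4.76%, against 1.86% of all genes tested). It was Thbs1, the activator of latent TGF-β thrombospondin-1, which fell by 1.41 ± 0.23. Without replicate 3 its change was −1.19 and it was not called.

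The list of Langerhans cell and epithelial junction genes also had several members called. Of its 19 measured genes 7 were called higher and 0 lower (36.8%, against 1.86% of all genes tested), with a median of 0.65. Itgae, the integrin αE that binds E-cadherin, read 10.53, 10.95 and 10.49 at 12 h, against 7.25, 7.29 and 7.53 in untreated CDP, a change of 3.30 ± 0.16 (limma adjusted p = 4.38e-09). Cdh1, E-cadherin itself, read 11.76, 12.02 and 11.80 at 12 h, against 8.33, 9.29 and 8.60 in untreated CDP, a change of 3.12 ± 0.24. Axl, a receptor kinase for the ligand Gas6, read 11.23, 11.36 and 11.45 at 12 h, against 7.77, 7.81 and 8.71 in untreated CDP, a change of 3.25 ± 0.28. The highest untreated array, replicate 3 for Axl and replicate 2 for Cdh1, still lay over 2 log2 units below the lowest 12 h array.

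Desmoplakin (Dsp), which anchors desmosomes to the cytoskeleton, rose by 2.29 ± 0.11, the tight junction scaffold Tjp1 by 1.14 ± 0.13 and the transcription factor Runx3, needed for Langerhans cells, by 1.27 ± 0.07. Cd207, which encodes langerin, the protein that defines Langerhans cells, stayed dim, at 6.21, 6.21 and 6.11 at 12 h against 6.10, 6.18 and 6.09 in untreated CDP. Epcam, another surface protein of Langerhans cells, read 7.05, 7.32 and 7.44 at 12 h, against 6.32, 6.44 and 6.33 in untreated CDP, and its change of 0.91 ± 0.08 was not called. The aryl hydrocarbon receptor Ahr, needed for Langerhans cells, changed by −0.28 ± 0.13 and was not called either. Of 26 integrin genes the β5 chain Itgb5 (1.78 ± 0.12) and Itgax, the αX chain known as CD11c (1.42 ± 0.08), were also called higher. None was called lower (11.5% called, against 1.86% of all genes tested), and the median of the list was −0.076. At an unadjusted p of limma under 0.05, 5 integrin genes were higher and 6 lower. These are 19.2% and 23.1%, against 12.5% and 14.2% of all genes tested. Axl was the only 1 of 5 genes of TAM receptors and their ligands to be called.

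Gene families of junction proteins were grouped by symbol after their values were seen. Among 30 claudins, junctional adhesion molecules and tight junction plaque genes 4 were called higher and 0 lower, against 0.858% and 0.998% of all genes tested. They were Cldn1, Tjp1, the junctional adhesion molecule F11r, which read 12.59, 12.71 and 12.73 at 12 h against 9.94, 10.42 and 10.70 in untreated CDP (2.32 ± 0.11), and its relative Jam2 (2.33 ± 0.17). No claudin but Cldn1 was called, and the median of the family was 0.012. Among 36 cadherins, desmosomal proteins and plakophilins Cdh1 and Dsp were the 2 called, with a median of 0.007. The membrane serine protease St14 rose by 1.59 ± 0.09 and its inhibitor Spint1 by 1.53 ± 0.23, a pair known from epithelia. Without replicate 1 the change of Spint1 was 1.29 and not called.

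Single receptors and signal proteins of other families were called as well, and most are named here after their values were seen. Siglech, a sialic acid binding lectin used as a marker of plasmacytoid dendritic cells, read 11.85, 12.02 and 11.65 at 12 h, against 8.93, 9.04 and 8.31 in untreated CDP, a change of 3.08 ± 0.14. Siglecf, its relative known from eosinophils, rose by 2.52 ± 0.12, while Cd22, the B cell member, fell by 1.93 ± 0.18. Thus 2 of 9 Siglec genes rose and 1 fell, against 0.858% and 0.998% of all genes tested. Of the 3 receptors of vasoactive intestinal peptide and its relative PACAP, Vipr1 rose and Vipr2 did so by 1.81 ± 0.14. The G protein subunit gene Gna15, also of the Gq class, rose by 1.69 ± 0.08, Rgs12, which speeds the shut-off of G proteins and was the 1 called of 20 Rgs genes, by 2.25 ± 0.12, the checkpoint receptor gene Havcr2 by 2.42 ± 0.16, the epithelial membrane protein gene Emp1 by 2.50 ± 0.18 and the vitamin D receptor gene Vdr by 1.94 ± 0.10.

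**Figure D3:**
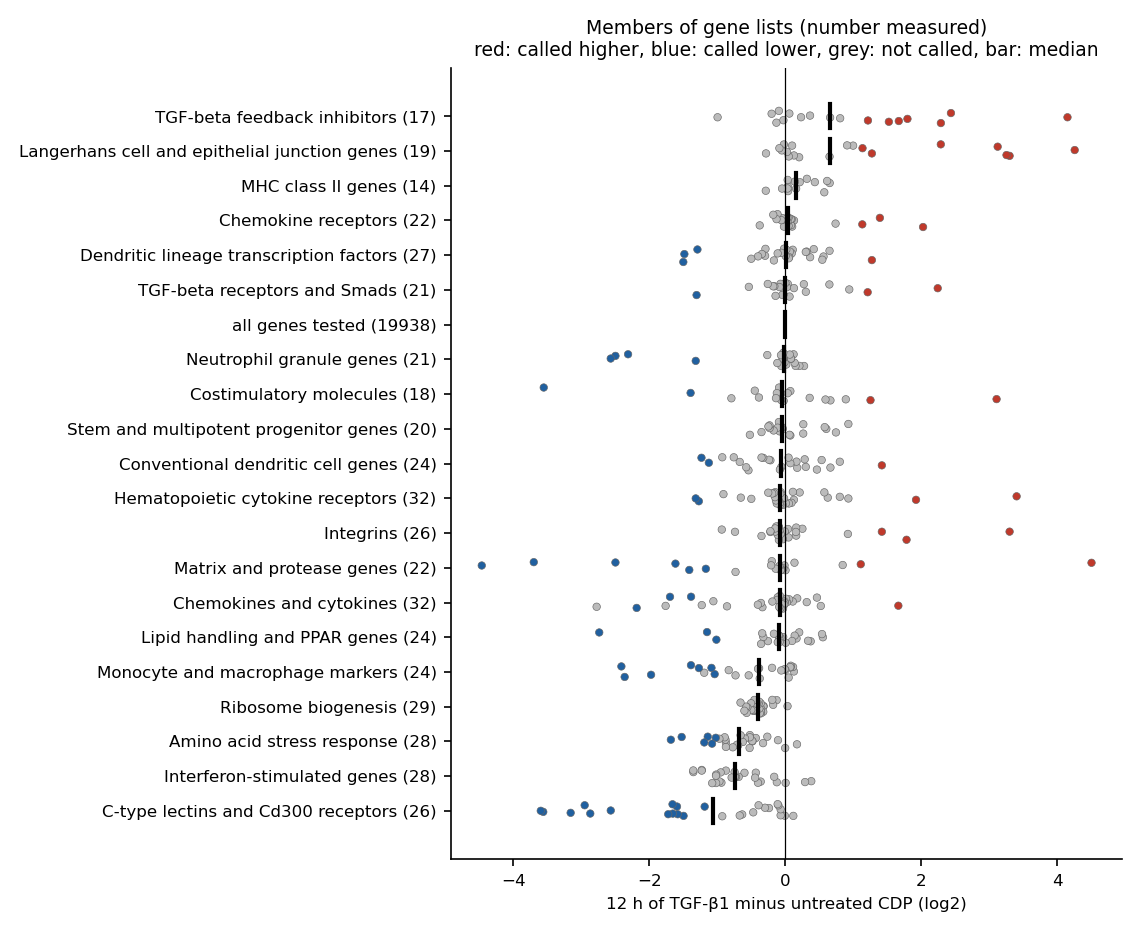
Change at 12 h of TGF-β1 (x axis, log2) of the members of gene lists, with the number measured in brackets. Red points were called higher, blue points lower and grey points not called, and the black bar is the median of the list. Feedback inhibitors and genes of Langerhans cells and junctions have the highest medians, and C-type lectins and Cd300 receptors have the lowest median.

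The list with the most called members was that of C-type lectins and Cd300 receptors, surface receptors of myeloid cells. Of 26 measured genes 13 were called lower and 0 higher (50.0%, against 1.86% of all genes tested), with a median of −1.05. Clec4n, known as Dectin-2, read 6.74, 6.91 and 8.32 at 12 h, against 10.68, 10.68 and 11.40 in untreated CDP, and fell by 3.59 ± 0.17. Clec4a1, of the family of inhibitory lectins named after DCIR, read 8.19, 8.62 and 9.92 at 12 h, against 12.23, 12.45 and 12.73 in untreated CDP, and fell by 3.56 ± 0.37. Clec4e, known as Mincle, read 8.21, 7.84 and 10.14 at 12 h, against 11.42, 11.30 and 12.07 in untreated CDP, and fell by 2.87 ± 0.52 (limma adjusted p = 0.0011). Replicate 3 was the highest of the 12 h arrays for all 3 genes, and Clec4e lost its call without the replicate block (limma adjusted p = 0.0443), without replicate 1 (change −2.69) and without replicate 2 (−2.57). Clec4a3 fell by 3.15 ± 0.22, Cd300ld fell by 2.95 ± 0.12 and Clec4a2 fell by 2.56 ± 0.19.

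Other receptor families of myeloid cells, grouped by symbol after their values were seen, held further genes called lower. Since the families were chosen with their values known, these counts are a description, and 0.998% of all genes tested were called lower. Of 8 leukocyte and paired immunoglobulin-like receptor genes 7 were called lower. They were Pilra (−1.93 ± 0.09), Pilrb1 (−2.51 ± 0.16), Pilrb2 (−2.24 ± 0.17), Lilr4b (−2.28 ± 0.35), Lilrb4a (−1.63 ± 0.28), Lilra6 (−1.52 ± 0.11) and Pirb (−1.29 ± 0.13), and the family includes near-identical copies that the probes may not tell apart. Of 4 genes of Fcγ receptors, which bind antibody complexes, Fcgr4 fell by 2.51 ± 0.13, Fcgr3 by 1.38 ± 0.27 and Fcgr1 by 1.08 ± 0.26. All 3 adhesion receptors of the Adgre family fell, namely the macrophage marker gene Adgre1 (−1.97 ± 0.17), Adgre4 (−2.53 ± 0.44) and Adgre5, known as CD97 (−1.22 ± 0.11). Each replicate number and each of the 6 arrays was left out in turn. Fcgr1 was called in none of these 9 fits (changes of −1.11 to −1.04). Fcgr3 was not called without replicate 1, replicate 2, 12 h array 2 or untreated array 3 (−1.48 to −1.23 over the 9). Adgre4 was not called without replicate 1 (−2.44) or replicate 3 (−2.42), and Lilr4b (−2.10) and Lilrb4a (−1.52) were not called without replicate 1. These genes other than Fcgr3, and Adgre1, also lost their calls without the replicate block.

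Further families were also grouped by symbol after their values were seen, and their counts stand beside 0.998% of all genes tested called lower. Of 10 Toll-like receptor genes Tlr8, a sensor of RNA, fell by 1.73 ± 0.19 and Tlr1, which pairs with Tlr2, by 1.34 ± 0.26. Tlr7 moved by −1.19 ± 0.29 and missed the threshold (limma adjusted p = 0.0101). Of 22 killer cell lectin-like receptor genes 5 were called lower, Klra17 (−1.72 ± 0.22), Klrb1b (−1.28 ± 0.17), Klri1 (−1.26 ± 0.12), Klri2 (−1.11 ± 0.12) and Klrd1 (−1.17 ± 0.25). Of the 4 syndecans, proteoglycans of the cell surface, Sdc4 fell by 1.34 ± 0.23, Sdc1 by 1.06 ± 0.12 and Sdc3 by 1.04 ± 0.22. Several of these calls were lost when arrays were left out. Sdc3 was called in none of the 9 fits with arrays left out (changes of −1.13 to −0.92), and Klrd1 was called only without replicate 2, replicate 3 or untreated array 3 (−1.33 to −1.08 over the 9). Tlr1 was not called without replicate 1, replicate 3, 12 h array 1 or 3, or untreated array 2 (−1.49 to −1.24). Sdc4 lost its call without replicate 2 (−1.27), Sdc1 without untreated array 2 (−0.99) and Klri2 without untreated array 3 (−0.98). Without the replicate block Tlr8, Tlr1, Klrd1, Sdc1 and Sdc3 were not called.

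Of 24 markers of monocytes and macrophages 7 were called lower and 0 higher (29.2%, against 1.86% of all genes tested), with a median of −0.39. The count called lower was 3 without the replicate block. The mean level of the list was 8.46 to 8.85 at 12 h and 9.12 to 9.49 in untreated CDP. The mannose receptor Mrc1 read 5.99, 6.01 and 5.89 at 12 h, against 8.35, 7.99 and 8.77 in untreated CDP, and fell by 2.41 ± 0.20. The coagulation factor F13a1 fell by 2.36 ± 0.23 and the scavenger receptor Msr1 by 1.27 ± 0.15, while Csf1r (0.13 ± 0.06) and Cx3cr1 (0.08 ± 0.10) were not called. In bulk RNA of this kind fewer cells of a type and less RNA in each cell cannot be told apart.

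Of 21 neutrophil granule genes 4 were called lower, 0 higher and 17 not at all (19.0% called, against 1.86% of all genes tested). The median of the list was −0.024. The collagenase gene Mmp8 read 9.46, 9.20 and 9.55 at 12 h, against 11.89, 11.82 and 12.00 in untreated CDP, and fell by 2.50 ± 0.18. The serine protease Ctsg, cathepsin G, read 9.50, 9.09 and 8.83 at 12 h, against 11.68, 11.38 and 11.28 in untreated CDP, and fell by 2.31 ± 0.10. Haptoglobin and Csf3r, the receptor of granulocyte colony-stimulating factor (fell by 1.32 ± 0.09), completed the 4. Myeloperoxidase (Mpo), the defining enzyme of early granulocytes, read 8.90, 8.10 and 8.17 at 12 h, against 8.84, 8.21 and 8.23 in untreated CDP, with overlapping groups. The mean level of the list was 8.22 to 8.47 at 12 h and 8.63 to 8.87 in untreated CDP, and the part of such cells in the falls was not tested.

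Matrix and protease genes were divided. Of 22 measured genes 2 rose, led by Chad, and 6 fell (36.4% called, against 1.86% of all genes tested). Among those that fell besides Vcan, Lox, Mmp8 and Thbs1 was Adam8, a membrane protease of leukocytes, which fell by 1.61 ± 0.15.

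Of 27 measured transcription factors of the dendritic lineage 4 were called (14.8%, against 1.86% of all genes tested). Runx3 rose and 3 fell: Spib, which acts in plasmacytoid dendritic cells (fell by 1.50 ± 0.29), Zeb2 (fell by 1.48 ± 0.14), which favours the plasmacytoid and monocytic fates, and Nfil3 (fell by 1.29 ± 0.13), which acts in conventional dendritic cells. Id2, which antagonises the plasmacytoid factor Tcf4, read 13.82, 13.90 and 13.89 at 12 h, against 13.12, 13.22 and 13.32 in untreated CDP, and Tcf4 read 11.61, 11.63 and 11.53, against 11.97, 12.01 and 11.68. The groups did not overlap for either gene, in opposite directions, but both changes were under log2 1. Irf4, which acts in conventional dendritic cells, changed by 0.42 ± 0.16. Of 24 genes of conventional dendritic cells Itgax rose, and Il12a, a subunit of interleukin 12 (fell by 1.23 ± 0.12), and the lysosomal amidase gene Naaa (fell by 1.12 ± 0.09) fell. Siglech and Spib were the 2 called of 16 genes of plasmacytoid dendritic cells, in opposite directions. Spib was not called without replicate 1, replicate 2, 12 h array 1 or untreated array 2 (changes of −1.63 to −1.24 over the 9 fits with arrays left out).

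Antigen presentation genes did not pass the test. None of 14 genes of MHC class II was called by limma, although 6 were higher and 0 lower at an unadjusted p under 0.05 (against 12.5% of all genes tested higher and 14.2% lower) and the median was 0.15. H2-Aa, a class II α chain, read 12.83, 13.01 and 13.35 at 12 h, against 12.74, 12.88 and 13.45 in untreated CDP, with overlapping groups, and the β chain H2-Ab1 changed by 0.16 ± 0.11. The class II transactivator gene Ciita changed by 0.57 ± 0.17, the costimulatory ligand gene Cd86 by −0.39 ± 0.19 and the homing receptor gene Ccr7 by −0.06 ± 0.16, and none was called. Of 18 costimulatory molecules Cd96 and Cd5 (1.25 ± 0.19) rose, and Cd28 and the ligand gene Tnfsf9 (−1.39 ± 0.30) fell. Cd5 lost its call without replicate 1 (1.26) and without replicate 3 (1.13). Tnfsf9 lost it in 6 of the 9 fits with arrays left out (−1.52 to −1.24), and was called without replicate 3, 12 h array 2 or untreated array 3.

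Among chemokine receptors 3 of 22 rose and 0 fell (13.6% called, against 1.86% of all genes tested). Ccr6, the receptor of Ccl20, read 9.78, 10.44 and 9.44 at 12 h, against 7.84, 8.32 and 7.41 in untreated CDP, a change of 2.03 ± 0.18. Cxcr3 rose by 1.39 ± 0.12 and Cxcr2, the receptor of neutrophil chemokines, by 1.13 ± 0.25. Cxcr2 read 9.05, 8.20 and 8.44 at 12 h, against 7.87, 7.58 and 6.84 in untreated CDP, so that the lowest 12 h array lay just above the highest untreated one. Of the 9 fits with arrays left out only that without 12 h array 2 called Cxcr2 (0.90 to 1.39 over the 9), and it was not called without the replicate block. Of 32 cytokine receptors Ifnlr1 and Il7r, the interleukin 7 receptor (1.92 ± 0.13), rose, and Csf3r and Il6st, the shared signal chain gp130 (−1.27 ± 0.11), fell.

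Of 32 chemokines and cytokines Cxcl16 rose (1.66 ± 0.33), and Ccl6 (−2.18 ± 0.13), Il18 (−1.69 ± 0.32) and Ccl9 (−1.38 ± 0.33) fell. Some cytokine genes moved further without passing the test. Ccl3, a chemokine of inflammation that was named after its values were seen, read 9.61, 9.49 and 10.54 at 12 h, against 12.61, 12.47 and 12.87 in untreated CDP, a change of −2.77 ± 0.69 with a limma adjusted p of 0.011. Il1b, interleukin 1β, changed by −1.76 ± 0.59 (limma adjusted p = 0.0567). All 12 h arrays lay below all untreated ones for both genes. Ccl9 was called only without replicate 2 among the 9 fits with arrays left out (−1.52 to −1.20). Cxcl16 was not called without replicate 1, 2 or 3, 12 h array 2 or untreated array 1 (1.42 to 1.84), nor Il18 without replicate 1 or 2, 12 h array 3 or untreated array 3 (−1.87 to −1.42). All 3 lost their calls without the replicate block. Interleukin 6 (Il6) was dim in all 6 arrays and changed by 0.01 ± 0.41.

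Interferon-stimulated genes had a low median, −0.74, yet none of the 28 measured was called by limma. At an unadjusted p of limma under 0.05 5 were lower (17.9%, against 14.2% of all genes tested). Their mean level set replicate 3 apart in both groups, at 8.48, 8.52 and 9.49 at 12 h and 9.06, 8.91 and 10.58 in untreated CDP. Ifit1, an RNA-binding antiviral protein, read 6.99, 6.74 and 8.54 at 12 h, against 7.92, 7.65 and 10.75 in untreated CDP. Ifit3, its partner, changed by −1.23 ± 0.84 and Rtp4, another such gene, by −1.35 ± 0.57. In a fit of only the 6 arrays compared 7 of the 28 were called lower, and the median was −0.48 when replicate 3 was left out. Over the 199 genes called lower, replicate 3 was the highest array of its group for 130 at 12 h and for 121 in untreated CDP. Over the 171 genes called higher it was the highest for 49 at 12 h and for 52 in untreated CDP. The shares over all genes tested are not given here. Without replicate 3 the comparison called 364 genes in all, of which 337 were among the 370 called with it.

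Genes of the amino acid stress response, which Atf4 switches on when amino acids run short, were called in the downward direction only. Of 28 genes 6 were lower and 0 higher (21.4%, against 1.86% of all genes tested), with a median of −0.67. Chac1, which degrades glutathione, read 8.60, 8.45 and 8.61 at 12 h, against 10.36, 10.27 and 10.08 in untreated CDP, and fell by 1.68 ± 0.10. Asns, asparagine synthetase, read 11.56, 11.32 and 11.57 at 12 h, against 12.72, 12.65 and 12.65 in untreated CDP, and fell by 1.19 ± 0.06. The stress regulator Nupr1 fell by 1.52 ± 0.12, the arginine transporter Slc7a3 by 1.14 ± 0.12, the transcription factor Cebpb by 1.08 ± 0.14 and Cth, which makes cysteine, by 1.02 ± 0.09. Of 24 genes of lipid handling Lpl, the nuclear receptor Pparg (fell by 1.15 ± 0.11) and the fatty acid binding protein Fabp5 (fell by 1.01 ± 0.08) were the 3 called. Of 27 genes of glutathione and oxidative stress Ggt5 rose (1.00 ± 0.11) and the glutathione reductase Gsr fell (−1.13 ± 0.09), and Hmox1 was not called (−0.97 ± 0.17). Some of these changes lay so close to log2 1 that arrays left out moved them under it. Cth was not called without replicate 2 or either of its arrays (changes of −1.12 to −0.94), Pparg without replicate 3 (−0.99), Fabp5 without replicate 1 or 3, 12 h array 1 or 3, or untreated array 3 (−1.06 to −0.98), and Ggt5 without replicate 1 or 2, 12 h array 1 or 2, or untreated array 1 (0.96 to 1.05).

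Of 30 immediate early genes Dusp6, a phosphatase of Erk, rose by 1.69 ± 0.11 and Atf3 fell by 1.53 ± 0.12. Egr1 read 8.19, 8.09 and 8.71 at 12 h, against 8.09, 8.35 and 9.19 in untreated CDP, with overlapping groups. Jun changed by −0.89 ± 0.13, Myc by −0.73 ± 0.09, Fos by −0.07 ± 0.31 and Klf10, an early TGF-β target, by 0.30 ± 0.09, and none was called. Of 13 Id and Hes repressors Bhlhe40 rose (1.20 ± 0.16), a call lost without replicate 1 (1.20) and without untreated array 3 (0.99), and Id1, a target of BMP signals, changed by −0.11 ± 0.07. None of the 30 genes of S phase or of the 27 of G2 and mitosis was called by limma. Of these 6 and 7 had an unadjusted p of limma under 0.05, as had 26.7% of all genes tested. The proliferation marker Mki67 read 13.29, 13.30 and 13.27 at 12 h, against 13.31, 13.33 and 13.22 in untreated CDP. The 29 genes of ribosome biogenesis had a median of −0.39 with 0 called, and the 18 of cholesterol synthesis one of 0.23 with 0 called.

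Among markers of cells that the sort could hold, 2 of 16 B cell genes fell, Cd22 and the adaptor gene Bank1, which read 6.64, 6.58 and 6.61 at 12 h against 9.30, 9.18 and 8.96 in untreated CDP (fell by 2.54 ± 0.14). Of 11 megakaryocyte genes the thrombin receptor F2r rose by 2.17 ± 0.14, and of 19 T and NK cell genes Klrd1 fell. None of 16 mast cell and basophil genes, 10 erythroid genes or 20 genes of stem and multipotent progenitors was called by limma. Of these 1, 2 and 10 had an unadjusted p of limma under 0.05, against 26.7% of all genes tested.

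Where 12 h stands in the time course was read from the neighbouring times. Against untreated CDP 65 genes were called at 2 h (0.326%), 140 at 4 h (0.702%), 253 at 8 h (1.27%), 370 at 12 h (1.86%) and 627 at 24 h (3.14%), and these comparisons share the untreated arrays. Between 8 h and 12 h only 3 genes were called (0.015%, of which 0.01% higher and 0.00502% lower): Cldn1 (1.37 ± 0.18) and Gna14 (1.32 ± 0.11) were higher at 12 h and Cd28 was lower (−1.15 ± 0.10), each in 3 of 3 pairs. These 3 calls differed in how they depended on arrays. Cldn1 was called in only 1 of 9 fits with arrays left out, that without 8 h array 3 (changes of 1.22 to 1.57 over the 9), and it lost its call without the replicate block. Gna14 (1.16 to 1.47) and Cd28 (−1.22 to −1.09) lost theirs without replicate 1 or replicate 2, and Cd28 without the replicate block too. With limma 0 genes were called in this step without replicate 1 or without replicate 2, and 1 without the replicate block. Without replicate 1 and without replicate 2, 844 and 914 genes had an unadjusted p of limma under 0.05 (4.23% and 4.58%). Fits without a replicate also hold fewer arrays, and the part of this in the lost calls was not tested. At 24 h against 12 h 30 genes were higher (0.15%) and 56 lower (0.281%, together 0.431%).

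The named genes differed in their course. The change of Pmepa1 from untreated CDP was 3.80 at 2 h, 3.82 at 4 h, 4.12 at 8 h, 4.15 at 12 h and 4.20 at 24 h. That of Skil was 1.92 at 2 h, 1.85 at 4 h, 1.84 at 8 h, 1.80 at 12 h and 1.79 at 24 h. That of Gna14 was 0.14 at 2 h, 0.74 at 4 h, 2.34 at 8 h, 3.66 at 12 h and 5.07 at 24 h. Pmepa1 and Skil thus stood near their 12 h change by 2 h, whereas Gna14 was near its untreated level at 2 h and still below its 24 h level at 12 h.

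Cldn1 changed by 1.03 at 2 h, 1.82 at 4 h, 2.88 at 8 h, 4.26 at 12 h and 6.02 at 24 h, and Itgae by 0.16 at 2 h, 0.73 at 4 h, 2.16 at 8 h, 3.30 at 12 h and 4.88 at 24 h. Vcan changed by −0.64 at 2 h, −2.08 at 4 h, −4.02 at 8 h, −4.46 at 12 h and −4.69 at 24 h. Mmp8 changed by −0.25 at 2 h, −0.44 at 4 h, −1.17 at 8 h, −2.50 at 12 h and −5.14 at 24 h. Vcan had made most of its fall by 8 h, while Mmp8 at 12 h was in the middle of its fall. Cxcr2 changed by 0.58 at 2 h, 1.19 at 4 h, 1.43 at 8 h, 1.13 at 12 h and −0.55 at 24 h. Cd5, a receptor that dampens antigen signals in lymphocytes, changed by 0.61 at 2 h, 1.09 at 4 h, 1.34 at 8 h, 1.25 at 12 h and 0.23 at 24 h. Cxcr3 changed by 1.25 at 2 h, 1.93 at 4 h, 1.77 at 8 h, 1.39 at 12 h and 0.32 at 24 h. These 3 were called higher at 12 h than in untreated CDP and lower at 24 h than at 12 h, by tests that share the 12 h arrays.

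**Figure D4:**
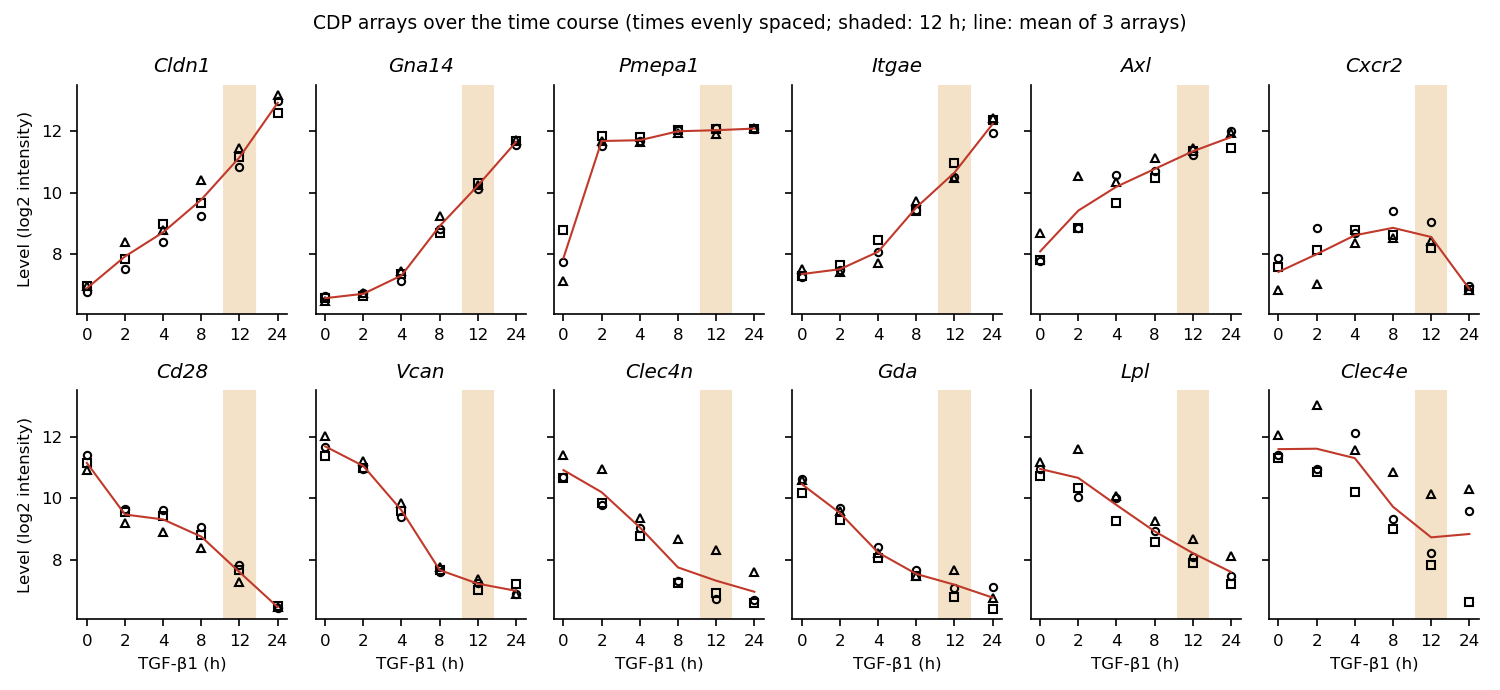
Log2 levels of 12 genes on all 18 CDP arrays, with the hours of TGF-β1 on the x axis (times evenly spaced), points for arrays, lines for the mean of 3 arrays and 12 h shaded. Pmepa1 is near its plateau at 2 h, Vcan at 8 h, and Cldn1, Gna14, Itgae and Cd28 still move between 12 h and 24 h, while Cxcr2 turns back.

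Whether the 12 h change differed from that of MPP was tested by setting the CDP change against the MPP change in a fit of 36 arrays (CDP minus MPP). It was called for 145 genes (0.727%), 51 with the CDP change above (0.256%) and 94 with it below (0.471%). Without the replicate block it was called for 97, 43 above and 54 below. Separately, 63 genes were called higher in both cell types, 36.8% of the 171 in CDP and 62.4% of the 101 in MPP (0.507% of all genes, with 147 or 0.737% called there). A further 41 were called lower in both, 20.6% of the 199 in CDP and 89.1% of the 46 in MPP (0.231%). None was called in opposite directions.

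Cldn1 differed most, with a change of 4.26 ± 0.18 in CDP and −0.03 ± 0.14 in MPP, a difference of 4.29 ± 0.24 (limma adjusted p = 1.18e-11). Gna14 changed by 3.66 ± 0.11 in CDP and 0.65 ± 0.11 in MPP (difference 3.00 ± 0.16). Cdh1 changed by 3.12 ± 0.24 in CDP and 0.27 ± 0.13 in MPP (difference 2.85 ± 0.29). Ccr6 (2.03 ± 0.18 in CDP, −0.02 ± 0.07 in MPP) and Il7r (1.92 ± 0.13 in CDP, 0.23 ± 0.11 in MPP) were called above in CDP as well. So was Itgae, which rose in both cell types, by 3.30 ± 0.16 in CDP and 1.56 ± 0.12 in MPP. The junction gene Dsp also differed, with 2.29 ± 0.11 in CDP and 0.86 ± 0.08 in MPP.

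On the falling side Lox differed most, with −3.70 ± 0.17 in CDP and −1.02 ± 0.17 in MPP (difference −2.67 ± 0.26). Levels in untreated MPP are not given here for the genes of this paragraph. A gene already dim before treatment has little room to fall, and the part of this in the differences was not tested. Gda, with −3.27 ± 0.14 in CDP, fell less in MPP (difference −2.26 ± 0.16). Ctsg changed by −2.31 ± 0.10 in CDP and −0.17 ± 0.04 in MPP (difference −2.14 ± 0.11), and Bank1 by −2.54 ± 0.14 in CDP and −0.30 ± 0.06 in MPP (difference −2.24 ± 0.16). Ceruloplasmin (Cp), the copper oxidase of plasma, fell by 2.46 ± 0.26 in CDP and changed by −0.38 ± 0.36 in MPP. The signal transducer Smad3 changed by −1.30 ± 0.08 in CDP and −0.19 ± 0.08 in MPP (difference −1.11 ± 0.12). The difference of Cp was called in only 3 of 15 fits with arrays left out (−3.02 to −1.35), those without replicate 3, untreated MPP array 3 or MPP 12 h array 3, and that of Smad3 was −0.99 and not called without untreated MPP array 3.

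For some other genes no difference between the cell types was called. Chad changed by 4.50 ± 0.14 in CDP and 4.35 ± 0.06 in MPP, with a 95% interval of the difference from −0.18 to 0.49. Pmepa1 changed by 4.15 ± 0.23 in CDP and 4.15 ± 0.12 in MPP, with an interval from −0.59 to 0.58. For Axl the interval ran from −0.34 to 0.93, for Skil from −0.18 to 0.48 and for Vcan from −1.03 to −0.15, which leaves out 0 although the adjusted p of limma was 0.133. These intervals are unadjusted and leave room for differences of the size of their bounds.

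Nt5e, the ectonucleotidase CD73, had a called difference with the larger change in MPP. It changed by 0.73 ± 0.14 in CDP and 2.46 ± 0.09 in MPP, and Mcpt2, a mast cell protease, by −0.02 ± 0.07 in CDP and 1.90 ± 0.29 in MPP. Cx3cr1 changed by 0.08 ± 0.10 in CDP and 1.32 ± 0.12 in MPP. Id3 (0.75 ± 0.20 in CDP, −0.52 ± 0.07 in MPP) and Ccr1 (0.74 ± 0.24 in CDP, −0.54 ± 0.11 in MPP) were called in neither cell type alone, with changes in opposite directions. The differences of Mcpt2 and Id3 were not called without replicate 1 (−1.72 and 0.98) or replicate 2 (−1.66 and 1.20). That of Ccr1 was called in only 3 of 15 fits with arrays left out (1.15 to 1.38), those without replicate 3, untreated CDP array 3 or MPP 12 h array 1. All 3 lost their calls without the replicate block.

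**Figure D5:**
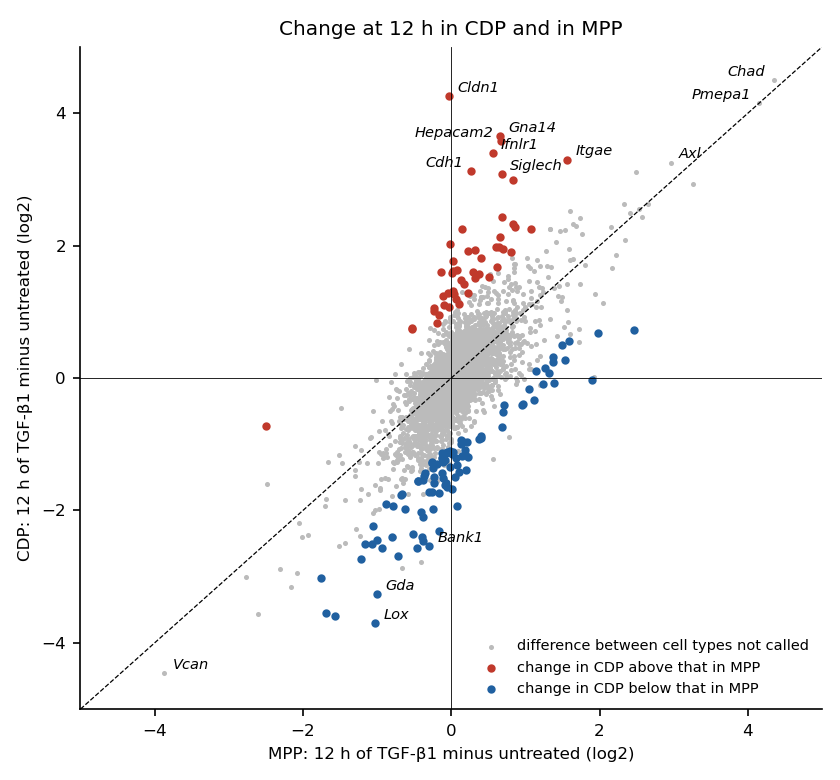
Change at 12 h of TGF-β1 in CDP (y axis, log2) and in MPP (x axis, log2), 1 point a gene, with the line of equal change dashed. The 145 genes with a called difference are coloured, 51 red (CDP above) and 94 blue (CDP below). Cldn1 and Cdh1 rose in CDP and were not called in MPP, Gna14 changed by 3.66 ± 0.11 in CDP and 0.65 ± 0.11 in MPP, and Chad and Pmepa1 lie along the line.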

How the data were processed

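RNA of 36 samples had been hybridised to Affymetrix Mouse Gene 1.0 ST arrays, and the deposited values were log2 intensities per probe set. By the submitters' processing notes the authors made them with Affymetrix Power Tools and RMA (background correction, quantile normalization and summary of probes). The study describes FARMS for its own analysis, so levels may differ from those it used. RMA draws all arrays to 1 distribution, so that a shift common to most genes is removed. Versions and genome build of the arrays' processing are not given in the sources used here.

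Of 35556 probe sets 21789 had 1 gene symbol, 1621 several and 12146 none. The 19938 genes with a symbol were each read by 1 probe set, for the 999 genes with more than 1 the set with the highest mean over 36 arrays. Models were fitted in limma 3.58.1 (R 4.3.3) with a term for group and the replicate number as a block, on the 18 CDP arrays, and on all 36 arrays for the difference between CDP and MPP. Two-sided p-values were adjusted over all genes (Benjamini-Hochberg), and a gene was called at an adjusted p under 0.01 and an absolute change of log2 1 or more. The block follows the study's methods. Deviations from the group means of same-numbered arrays correlated at 0.546, 0.537 and 0.661 between 12 h and untreated CDP, at 0.596, 0.443 and 0.745 between 12 h and 8 h, and at 0.591, 0.209 and 0.189 between 12 h and untreated MPP. Over the 45 same-numbered pairs of all CDP times the correlation ran from −0.128 to 0.745, and 2 pairs, both of replicate 1 with 2 h arrays, were not above 0.1. The numbers were taken to pair the arrays of the groups compared. The limma fits of 12 h against untreated CDP and of the difference between CDP and MPP were tested on simulated data. Motif counts and figures were made in Python 3.11.15. Array number limits the precision.

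The groups and the 38 gene lists (809 of 876 entries measured, 757 genes) were chosen with earlier results of these data known. Named by rule were the 15 largest rises and falls at 12 h among genes called in all pairs, up to 6 each way for 12 h against 8 h and for the difference from MPP, up to 6 called genes of each list, and some genes fixed by name. Families grouped by symbol, and other genes, were chosen after their values were seen. Alternatives were the fit without the block, other sets of arrays, scalings, probe set rules and variance priors, and each replicate or array left out. Promoter windows were the 250 bases before the first listed start of a gene. Probe sets with no single symbol were fitted apart. Cdkn1a is not analysed here.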

Additional observations from a re-analysis of the deposited data

Results flagged for a closer look

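The tested difference between the change at 12 h in CDP and that in MPP, on the log2 scale, drew attention to 55 of the genes named above, each called with limma. In 17 of them the CDP change lay above that of MPP. Among genes of junctions and adhesion these were Cldn1 (4.29), Cdh1 (2.85), Dsp (1.43), Jam2 (1.49) and Itgae (1.74). Among receptors and their signal proteins they were Gna14 (3.00), Ifnlr1 (2.84), Vipr1 (2.15), Vipr2 (1.40), Ccr6 (2.05), Ccr1 (1.28), Il7r (1.70) and Rgs12 (1.17), and the others were Hepacam2 (2.90), Siglech (2.40), Id3 (1.27) and Smurf1 (1.01). The CDP change lay below that of MPP in 38, and the part of untreated MPP levels in this was not tested. Among lectins and paired receptors of myeloid and NK cells these were Clec4n (−2.02), Clec4a2 (−1.63), Mrc1 (−1.61), Pilra (−1.14), Pilrb1 (−1.44), Pilrb2 (−1.19), Klra17 (−1.43), Klrb1b (−1.01), Klrd1 (−1.32), Klri1 (−1.15) and Klri2 (−1.10). Other receptors and cytokines with a CDP change below that of MPP were Fcgr3 (−1.58), Fcgr4 (−1.34), Adgre1 (−1.35), Adgre5 (−1.09), Tlr7 (−1.42), Tlr8 (−1.56), Csf3r (−1.39), Gpr65 (−1.98), Cx3cr1 (−1.24) and Il12a (−1.15). Proteases, enzymes and secreted proteins followed with Ctsg (−2.14), Mcpt2 (−1.92), Hp (−2.10), Cp (−2.08), F13a1 (−1.85), Lpl (−1.51), Gda (−2.26), Nt5e (−1.73) and Lox (−2.67). The remaining ones were Bank1 (−2.24), Cd22 (−2.00), Cd28 (−1.86), Spib (−1.55), Zeb2 (−1.11), Pparg (−1.33), Smad3 (−1.11) and Gm9733 (−1.27). Calls of 29 of these genes were lost under at least 1 other setting, most often those of Tlr7, Cp, Ccr1 and Pilrb2.

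Probe sets that carry no single gene symbol were left out of all comparisons and fitted apart, at the same threshold. Of the 1621 probe sets with several symbols, 1 was higher at 12 h than in untreated CDP and 9 were lower. Of the 12146 with no symbol 88 were higher and 10 lower (0.807%), with changes of −3.67 to 3.24. Of the 88, 75 were among the 6617 probe sets numbered below the lowest one that has a symbol. What these probe sets detect is not given in the sources used here, and they are reported as counts. Dixon's test for a single array far from the others was not made, since each group held 3 arrays.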

How the results depend on the processing

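Against untreated CDP the count of genes called at 12 h lay between 316 and 397 over all settings, against 370 as reported. Without the replicate block 316 genes were called, 162 higher and 154 lower, so that the share of higher calls was 51.3%, against 46.2%. With arrays left out, 317 to 381 genes were called, 155 to 173 higher and 162 to 210 lower. The comparison of 12 h with 8 h depended on the setting. It gave 3 calls as reported, 1 (1 higher, 0 lower) without the replicate block, 2 (1 higher) with a trended and robust variance prior, and 4 (2 lower) with the mean of all probe sets of a gene. It gave 5 (2 lower) in each of 4 other settings, namely only the arrays compared, without the dimmest genes, cyclic loess and array weights. With arrays left out it gave 0 to 5 calls, 0 to 3 higher and 0 to 2 lower. The difference between CDP and MPP gave 145 calls as reported and 97 without the replicate block, 54 of them with CDP below, against 94. With arrays left out it gave 101 to 156, of which 38 to 57 had CDP above and 63 to 102 CDP below. The cause of these shifts was not tested. Scalings moved the median of all genes at 12 h to between −0.004 and 0.015.

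Of the 173 genes named for 12 h against untreated CDP 127 kept their direction and their side of the threshold under all alternatives. Calls of 29 were lost under at least 1, for 16 of them without the replicate block and for 20 without replicate 1. Of 55 named differences between CDP and MPP 29 were lost under at least 1 alternative, 24 of them without the block. Only genes not called turned their direction. With array weights the change of Il6 was −0.021. With arrays left out, changes ran over −0.124 to 0.22 for Il6, −0.002 to 0.111 for H2-Aa, −0.156 to 0.041 for Ccr7, −0.026 to 0.023 for Mki67, −0.202 to 0.135 for Fos, −0.012 to 0.028 for Spi1, −0.047 to 0.012 for Mcpt2 and −0.11 to 0.004 for Mpo. In fits with arrays left out and 2 arrays in a group, the spread was shared with the other groups. Genes near the lowest intensities, such as Il6, carry little information on change.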

Other observations

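Some lists with 0 genes called by limma held many small changes in 1 direction. Of 29 genes of ribosome biogenesis 28 were lower at 12 h than in untreated CDP at an unadjusted p under 0.05 and 0 were higher, against 14.2% lower and 12.5% higher of all genes tested (limma, two-sided). Gnl3, the nucleolar GTPase nucleostemin, changed by −0.66 ± 0.09 and Polr1e, a subunit of RNA polymerase I, by −0.60 ± 0.06, while nucleolin (Ncl), an abundant nucleolar protein, changed by −0.18 ± 0.05. Of 18 genes of cholesterol synthesis 13 were higher and 0 lower by the same measure, led by Cyp51, the sterol demethylase (0.41 ± 0.10). These are counts, and the lists were not tested as groups.

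Of 24 lysosome genes 5 were higher and 10 lower at an unadjusted p of limma under 0.05. These are 20.8% and 41.7%, against 12.5% and 14.2% of all genes tested, shares that also apply to the lists that follow. The cholesterol transporter Npc1 changed by 0.85 ± 0.08 and the tetraspanin Cd63 by 0.72 ± 0.14, and the protease cathepsin L (Ctsl) changed by −0.93 ± 0.11. Of 21 genes of the Bcl2 family and of p53 targets 3 were higher and 6 lower (14.3% and 28.6%). The death-promoting Bid changed by −0.90 ± 0.12 and Pmaip1, known as Noxa, by −0.87 ± 0.14. Of 11 CDK inhibitors, their kinases and D cyclins 4 were lower (36.4%) and 0 higher. Among the 4 were the cyclin gene Ccnd3 (−0.48 ± 0.10) and the kinase gene Cdk6 (−0.43 ± 0.07). Of 20 targets of NF-κB 1 was higher and 3 were lower (5% and 15%, below and near the shares of all genes). Cd40, a costimulatory receptor, changed by 0.89 ± 0.49 and Nfkbiz, a nuclear partner of NF-κB, by −0.85 ± 0.35, with limma adjusted p of 0.281 and 0.132.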
